A study of Mus musculus with 6 samples.

Results

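The kidney of a 2-month-old Alport syndrome mouse was compared with a wild-type kidney, gene by gene, outside the usual lists of cell type, injury and matrix genes. The comparison holds 2 of the 6 libraries of the series, 1 per side, chosen by their titles. Both are spatial transcriptomes of frozen kidney sections, in which each barcoded spot of the slide captured the RNA of the several cells above it. The library titled 2m AS came from a mouse of the genotype B6.Cg-Col4a5tm1Yseg, which carries a targeted allele of the X-linked collagen gene Col4a5, and had no treatment in its labels. The library titled WT had the genotype label B6C57, with no age given in the sources used here. The other 4 libraries were an untreated 5-month Alport kidney (5m AS), 2 Alport kidneys of 5 months labelled as hEV treated (early treated and late treated), and a mixed library of a wild-type and a heterozygous female. They are quoted only to place the 2 libraries compared. Unique molecular identifiers (UMIs), which count captured RNA molecules, were summed over all spots of a library and expressed as scaled CPM, the usual library-size unit after correction by TMM factors. Of 32285 genes listed, 6607 reached 20 scaled CPM in WT or 2m AS and are called the genes examined.

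There were 3212 spots and 91976637 UMIs in 2m AS against 4093 spots and 79699180 UMIs in WT, with a median of 28433 and 17790 UMIs per spot. Genes of the mitochondrial genome made up 7.16% of UMIs in 2m AS against 11.94% in WT. Space Ranger 1.3.1 produced the counts of 2m AS and version 1.2.1 those of WT, so the genotype and the version cannot be told apart. With 1 library per side no test was possible. Intervals in parentheses are 95% exact intervals of a ratio of counts, and they cover counting error only, not the spread between animals or sections. Kidney markers were present in both libraries, among them Lrp2 of the proximal tubule at 1070 and 1050 scaled CPM in 2m AS and WT. The Y-linked gene Ddx3y was found in both, at 22.3 and 22.9 scaled CPM, and had no UMI in the mixed female library, where a count of 0 allows up to 0.043. Col4a5 itself stood at 6.54 in 2m AS with 11.9 in WT, a ratio of 0.552 (0.492 to 0.618).

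In Alport syndrome a collagen chain of the glomerular basement membrane is missing or faulty, so that the filter fails and damage to tubules and interstitium follows. The tubules make up most of the kidney's RNA, and the proximal tubule lives on the oxidation of fatty acids. Several of its enzymes differ between male and female mice, since androgen and growth hormone set their levels. Chaperones, by contrast, are made in every cell and follow the load of unfolded protein in the cytosol and in the endoplasmic reticulum (ER).

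At least 2-fold higher in 2m AS were 85 genes, or 1.29% of the 6607, and at least 2-fold lower were 74, or 1.12%. At least 1.5-fold higher were 566 genes (8.57%) and at least 1.5-fold lower were 480 (7.27%). Here and in the lists below, a gene could reach the floor in 2m AS alone or in WT alone. The median log2 ratio of all genes was -0.03, with quartiles of -0.28 and 0.27. Of the 85 higher genes 13 were in a marker, injury or matrix list, as were 18 of the 74 lower genes. Leaving out these lists and predicted, ribosomal, mitochondrial and like genes, 59 genes remained past 2-fold on the higher side and 53 on the lower, and those with the largest ratios are followed here, 24 higher and 25 lower. With plain CPM in place of TMM scaling the split of all genes was 54 higher and 96 lower, and with median-of-ratios factors 116 and 66. The named genes were chosen for their ratio, so their ratios are a description.

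**Figure D1:**
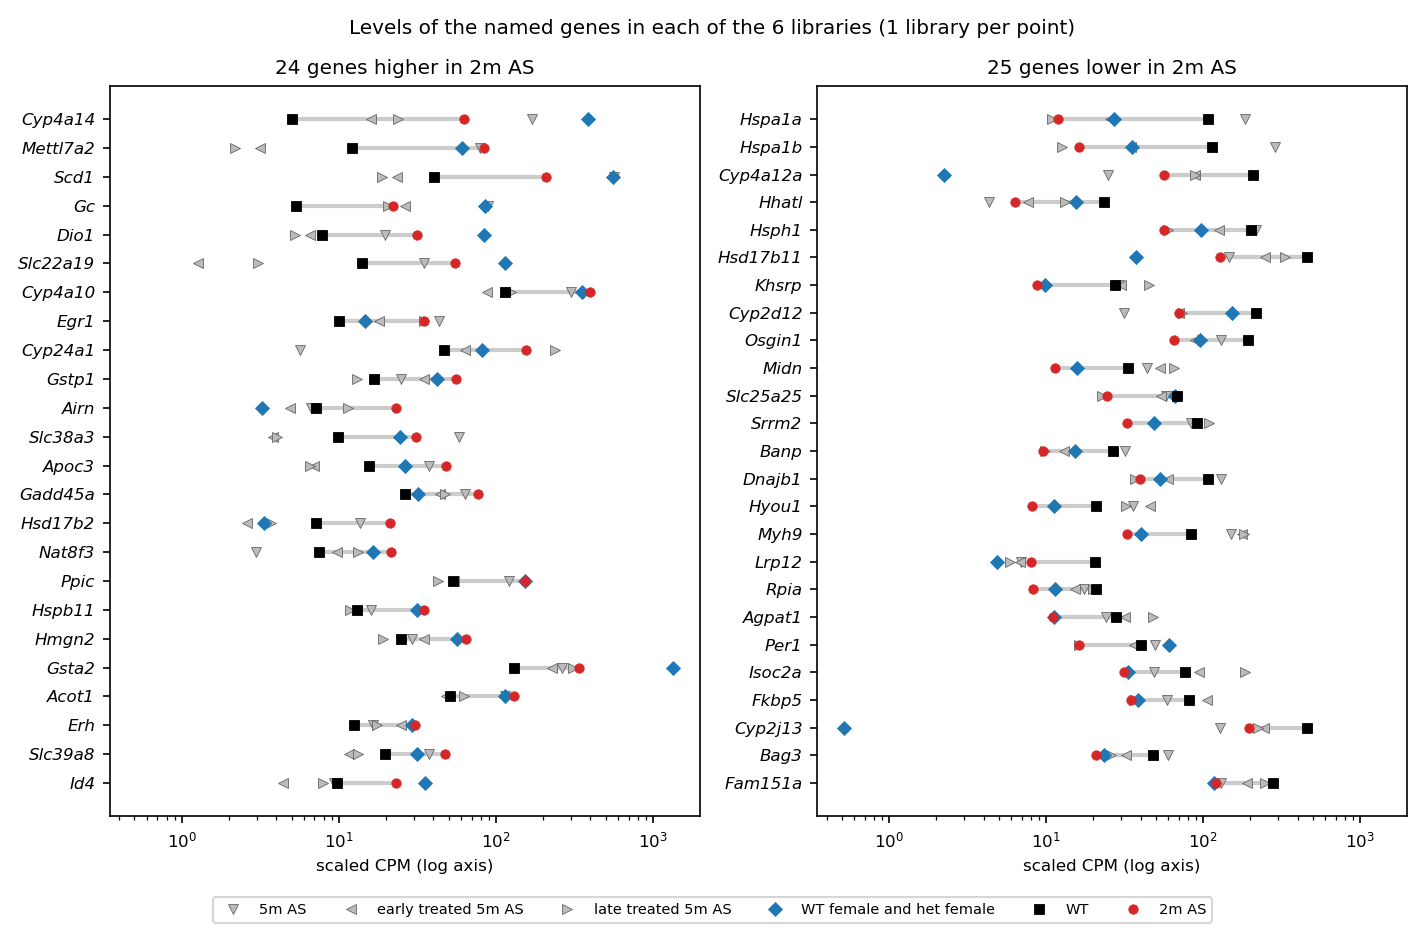
Scaled CPM (log axis) of the 24 higher and 25 lower genes with the largest ratios, with 1 point per library: red circles 2m AS, black squares WT, blue diamonds the mixed female library, grey triangles the 3 libraries of 5 months, and a grey bar from WT to 2m AS. 2m AS was the highest of the 6 libraries for 14 of the 24 genes on the left and the lowest for 14 of the 25 on the right. The genes were chosen for their ratio of 2m AS to WT, so these ranks follow in part from the choice.

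The largest difference among the higher genes was in enzymes that handle fatty acids. Cyp4a14, a fatty acid hydroxylase of the proximal tubule (mm10 chromosome 4, 115486200 to 115496142, minus strand), reached 62.7 in 2m AS where WT had 5.03, a ratio of 12.5 (11.2 to 14.0). Its neighbour Cyp4a10 was at 396 and 114, a ratio of 3.46 (3.37 to 3.55). Reads of these close paralogs cannot be fully told apart in the counts. Acot1, a cytosolic acyl-CoA thioesterase, was at 130 and 50.8, or 2.57 times higher (2.47 to 2.67). All 3 genes are known targets of PPARα, the nuclear receptor that answers to fatty acids.

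The wider PPARα list was uneven. Of its 36 genes 31 were at the level examined, of which 9 were at least 1.5-fold higher and 1 lower, and the median log2 ratio was 0.20. The share of all genes that were higher was 8.57%. Beyond these 3 genes, Cyp4a31 stood at 256 in 2m AS with 124 in WT. Acadm, which opens the oxidation of medium-chain fatty acids in mitochondria, was at 873 against 439, and Ehhadh of the peroxisome at 550 against 348. Cpt1a, the gate for long-chain fatty acids into mitochondria, was nearly level, at 301 and 315. Acaa1a was the lower member, at 166 against 278. Pdk4, a brake on glucose oxidation, was below the level examined, at 4.39 and 3.73.

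Scd1, which introduces a double bond into newly made fatty acids, reached 209 in 2m AS where WT had 40.2, a ratio of 5.20 (5.00 to 5.42). Its relative Scd2 went the other way, at 51.3 and 89.9. In the list of fatty acid synthesis Scd1 was the only 1 of 18 genes at least 1.5-fold higher and 2 were lower. Of all genes 8.57% were higher and 7.27% lower. The median log2 ratio of the list was -0.02. Cyp51, a sterol synthesis enzyme, was at 146 against 64.0, with a median log2 ratio of 0.22 over the 17 sterol genes examined.

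Many of these genes are ones whose level depends on sex in the mouse kidney, and the mixed female library set the scale for that. Cyp4a14 was at 386 there, Scd1 at 556, and Gsta2, a glutathione transferase, at 1340 against 337 in 2m AS and 131 in WT. Gc, the vitamin D-binding protein, was at 85.7 in the female library, 22.1 in 2m AS and 5.35 in WT. Dio1, a selenoenzyme that activates thyroid hormone, was at 83.7, 31.3 and 7.78 in the same order, and the organic anion transporter Slc22a19 at 114, 55.0 and 14.1. Such levels were not confined to the female library for Scd1 and Gc, at 562 and 88.8 in the other untreated Alport library. Cyp4a14, Gsta2, Dio1 and Slc22a19 were lower there than in the female library. For all 6 genes 2m AS lay between WT and the female library.

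The reverse held for some enzymes that are low in females. Cyp4a12a, a fatty acid hydroxylase typical of male mice, was at 208 in WT, 56.4 in 2m AS and 2.25 in the female library, and the ratio of 2m AS to WT was 0.271 (0.262 to 0.281). Cyp2j13 was at 460 in WT, 196 in 2m AS and 0.516 in the female library, and Hsd17b11, a dehydrogenase found on lipid droplets, at 457, 128 and 37.2. Odc1, the androgen-responsive first enzyme of polyamine synthesis, was at 1470, 818 and 360. The list of sex-dependent kidney genes holds genes high and genes low in females. Of its 14 genes examined 7 were at least 1.5-fold lower and 2 higher, where 7.27% and 8.57% of all genes were. The median log2 ratio was -0.51. Cyp2d12, 1 of the lower genes, was at 152 in the female library, between WT at 218 and 2m AS at 70.5. A wider set of 24 genes was at least 4-fold lower in the female library than in all 3 libraries of 5 months. These 3 are Alport libraries, so the set may hold genes that differ by disease as well as by sex. Of the 24 genes 7 were at least 1.5-fold lower in 2m AS and 3 higher. The 3 were BC049987, Col1a1 of the matrix list and C3 of the injury list. Of 12 genes at least 4-fold higher in the female library than in those 3 libraries, 5 were higher in 2m AS and none lower. Kap, the kidney androgen-regulated protein, was not lower in 2m AS, at 128000 against 74600 in WT.

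The pattern did not extend to every gene that differs by sex. Slc7a13, a male-high transporter of the late proximal tubule, was nearly level at 781 in 2m AS, with a ratio of 1.08 (the female library was at 0.617). In the 3 libraries of 5 months Cyp4a12a was between 24.9 and 88.7, below WT in all 3, and Cyp4a14 between 16.1 and 170, above WT in all 3. The age of the WT mouse is not given, so age and genotype cannot be told apart for these genes.

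Cyp24a1, the enzyme that inactivates vitamin D hormone, had 156 scaled CPM in 2m AS against 47.1 in WT, a ratio of 3.31 (3.18 to 3.44). The 5m AS library was far lower than both, at 5.65, and the late treated library higher, at 239. WT and 5m AS, the libraries of Space Ranger 1.2.1, were thus below all the others, and the part of the version was not tested. Airn, the noncoding antisense RNA of the imprinted Igf2r region (chromosome 17, 12741311 to 12860136, plus strand), was at 23.2 in 2m AS against 7.21 in WT, and between 3.25 and 11.5 elsewhere in the series. Igf2r was at 37.1 and 55.3. How strand was handled in the counting is not given in the sources used here, so reads of Airn and of the gene it overlaps may not be told apart. Mettl7a2 was at 83.6 and 12.1, Slc38a3, a glutamine transporter, at 31.2 and 9.95, and Apoc3, an apolipoprotein, at 48.4 and 15.5. Gadd45a, a stress-responsive growth arrest gene, was at 77.3 in 2m AS and at 26.3 in WT, which was the lowest of the 6 libraries.

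Among the lists outside cell type markers, chaperones had the lowest medians in 2m AS. Hspa1a and Hspa1b are the inducible heat shock protein 70 genes, neighbours on chromosome 17 that are nearly identical, so their reads may be split arbitrarily between them. Hspa1a stood at 11.9 in 2m AS with 108 in WT, a ratio of 0.110 (0.102 to 0.118), and Hspa1b at 16.1 and 114. Hsph1, a large co-chaperone, was at 56.0 and 202, and Dnajb1, a heat shock protein 40, at 39.4 and 108. The abundant constitutive member Hspa8 was at 1710 against 3190. Of 21 heat shock genes examined 15 were at least 1.5-fold lower and none higher, where 7.27% of all genes were lower, and the median log2 ratio was -0.90. A few members were nearly level, among them the mitochondrial chaperone Hspd1 at 494 and 531, the Hsp90 co-chaperone Ahsa1 at 42.8 and 47.1, and Cacybp at 55.9 and 62.9. Hspe1, the partner of Hspd1, was at 920 and 707.

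The heat shock genes also differed between libraries counted with different Space Ranger versions. Hspa1a was at 184 in 5m AS, whose counts came from the same Space Ranger version as WT, and at 27.2, 25.4 and 10.9 in the mixed, early treated and late treated libraries. Both libraries of version 1.2.1 were above all 4 libraries of version 1.3.1 for 12 of the 21 heat shock genes, compared with 8.31% of all genes examined. Against the mixed library in place of WT the median of the same 21 heat shock genes was -0.27. The part of the version, and of whatever else differed with it, in the heat shock result was not tested. Hyou1, Khsrp, Srrm2, Myh9 and Midn were not split by version in this way. For them 2m AS was the lowest of the 6 libraries and WT lay within the range of the others. For Khsrp, Hyou1, Srrm2 and Myh9 the mixed library, also of version 1.3.1, was nearer to 2m AS than to WT. It had 9.79, 11.2, 48.4 and 40.4 scaled CPM. The part of the version in these genes was not tested either. The heat shock genes Hsph1 and Bag3, which were split by version, were also lowest in 2m AS without WT being the highest.

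ER chaperones were lower as well. Hspa5 (BiP), the main chaperone of the ER lumen, reached 209 in 2m AS where WT had 449, a ratio of 0.465 (0.456 to 0.474). Calr, a calcium-binding lectin chaperone, was at 305 and 616, Creld2 at 28.6 and 63.1, and Hyou1, a partner of BiP, at 8.12 and 20.9. Of 18 genes of this list 12 were at least 1.5-fold lower and none higher, where 7.27% of all genes were lower. The median log2 ratio was -0.66. Against the mixed library, over the same 18 genes, it was -0.45. Here the pattern by version was weaker: the libraries of version 1.2.1 were above the other 4 for 3 of the 18 genes, against 8.31% of all genes. Ddit3 is not in these counts because the files list its symbol under more than 1 identifier. Translocation and Golgi genes, which serve the same secretory route, were not shifted as a group (3 of 33 higher, 2 lower, median -0.01).

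Promoters of the ER list were searched for the ER stress element bound by ATF6, which is CCAAT and CCACG with any 9 bases between them. In the 250 bases before the RefSeq start sites (GRCm38.p6, both strands searched), 8 of the 16 listed genes with a promoter entry held it, against 0.188% of the 5324 examined genes with an entry. It was in none of the 17 heat shock and none of the 27 translocation and Golgi genes. The stretches below show the site of 3 genes that differ in their ratio, 5′ to 3′ on the gene's strand, with the fixed letters of the element in capitals. The genes are Hspa5 (chr2:34771995-34772073, plus strand, log2 ratio -1.10), Creld2 (chr15:88819490-88819568, plus strand, -1.14) and Dnajc3 (chr14:118937797-118937875, plus strand, 0.02). In Creld2 the element lies on the opposite strand, so its letters read as the reverse complement.
Hspa5: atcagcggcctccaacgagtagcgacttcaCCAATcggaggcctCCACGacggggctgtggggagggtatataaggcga
Creld2: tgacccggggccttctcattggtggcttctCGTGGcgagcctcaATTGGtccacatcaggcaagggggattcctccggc
Dnajc3: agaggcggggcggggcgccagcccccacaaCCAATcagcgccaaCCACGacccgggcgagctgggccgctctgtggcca
The element did not separate the genes by their ratio. The 8 genes with it had a median log2 ratio of -0.62, from -1.14 to 0.02, and the 8 without it -0.64, from -0.87 to -0.29. Dnajc3, whose product binds BiP, carried the element and was level at 102 and 101 scaled CPM.

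For the heat shock list the search was for the heat shock element bound by HSF1, as the units GAA, TTC and GAA with any 2 bases between neighbours. It was present in 2 of 17 genes with an entry, and in 0.488% of the examined genes with an entry. The 2 genes were Hspd1 and Hspe1, which share a promoter in opposite directions. Among the 21 heat shock genes examined they had the highest log2 ratios, -0.10 for Hspd1 and 0.38 for Hspe1. Ahsa1 and Cacybp were close to Hspd1, at -0.14 and -0.17. Whether the element goes with the ratio was not tested, since only Hspd1 and Hspe1 held it, on a shared promoter. Their shared stretch is shown on the strand of Hspe1 (chr1:55088029-55088106, plus strand, GRCm38.p6), with the GAA and TTC units in capitals.
Hspe1: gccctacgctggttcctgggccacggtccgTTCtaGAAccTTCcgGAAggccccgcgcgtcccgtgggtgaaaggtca
A missing match says only that these letters are not in the window.

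**Figure D2:**
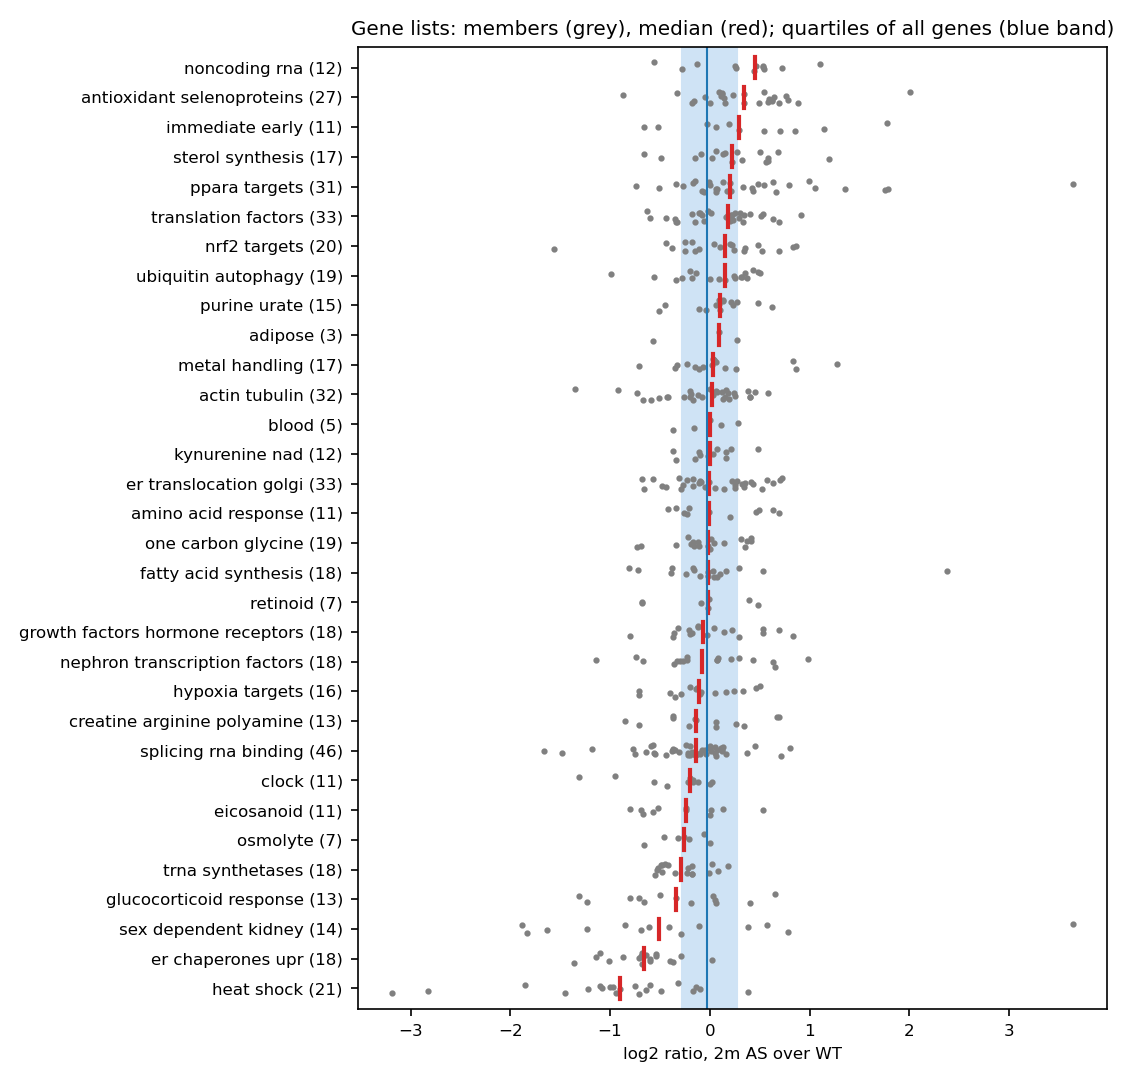
Log2 ratio of 2m AS over WT for the 32 gene lists with at least 3 genes examined (number of genes in parentheses), with grey points for genes, red bars for the list medians, a blue line for the median of all genes and a blue band for their quartiles. The heat shock and ER chaperone lists, with medians of -0.90 and -0.66, lie farthest to the left.

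Among RNA-binding genes the differences ran in both directions. Khsrp, which promotes the decay of AU-rich messages, had 8.72 scaled CPM in 2m AS against 27.5 in WT, a ratio of 0.317 (0.289 to 0.347). Srrm2, a scaffold of nuclear speckles, was at 32.7 and 91.5, and Snrnp70, a protein of the U1 particle, at 34.8 and 78.9. At the other end of the list was Rbm3, a cold-inducible RNA-binding protein, at 186 in 2m AS and 107 in WT. The related Cirbp, named after its value was seen, was at 61.7 and 37.8. Of the 46 genes of the list 7 were at least 1.5-fold lower and 2 higher, where 7.27% and 8.57% of all genes were, and the median log2 ratio was -0.14.

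Actb, cytoplasmic actin, was at 520 scaled CPM in 2m AS with 980 in WT, and Myh9, non-muscle myosin, at 32.7 and 83.6. They were the lowest of the 32 genes examined in the actin and tubulin list, which had a median log2 ratio of 0.02. Of the 32 genes 5 were at least 1.5-fold lower and none higher, where 7.27% and 8.57% of all genes were. Actg1 was nearly level, at 986 and 1070. Sod1, the cytosolic superoxide dismutase, was at 534 and 973. In the antioxidant list 9 of 27 genes were at least 1.5-fold higher, where 8.57% of all genes were, and Sod1 was the lower member. The median log2 ratio was 0.34, and 0.13 relative to genes of like transcript length and GC content, where Prdx1 went from 0.69 to 0.38. Gpx4, which reduces lipid peroxides, was at 2740 against 1620, and Prdx1 at 2680 against 1660. The ferritin chains, which store iron, were also higher: Fth1 at 19500 against 11000 and Ftl1 at 6860 against 3780.

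Genes that respond to glucocorticoids were lower in part. Per1, a clock gene that glucocorticoids induce, reached 16.2 in 2m AS where WT had 40.3, a ratio of 0.403 (0.376 to 0.431). Fkbp5, a co-chaperone of the glucocorticoid receptor and a standard readout of its activity, was at 34.8 and 81.7. Sgk1, a kinase that raises sodium uptake, was at 60.6 and 96.1. Of 13 genes examined 5 were at least 1.5-fold lower and 1, Cebpd, was higher, against 7.27% and 8.57% of all genes, with a median log2 ratio of -0.34. Of 11 clock genes examined 2 were at least 1.5-fold lower, Per1 and Bhlhe40 (45.8 and 88.6), none was higher, and the median was -0.20. Nr1d1, a repressor of the clock, was at 43.7 and 58.7, while the clock output genes Dbp and Hlf were level, at 205 and 204 and at 65.6 and 64.6. Both Per1 and Fkbp5 varied across the series, Per1 from 16.2 to 60.4 and Fkbp5 from 34.8 to 106. The hour at which the kidneys were taken is not given in the sources used here.

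Immediate early genes, which answer to stimuli within minutes, were mixed. Egr1 had 34.9 scaled CPM in 2m AS against 10.1 in WT, a ratio of 3.44 (3.16 to 3.75), and Junb was at 28.9 and 13.1. Jun was at 28.9 and 41.3 and Klf2 at 39.5 and 62.4. Of 11 genes examined 4 were at least 1.5-fold higher and 1 lower, where 8.57% and 7.27% of all genes were. Egr1 and Junb reached the level examined in 2m AS alone, so the count of higher genes depends in part on that floor. Tfcp2l1, a transcription factor of the collecting duct, was at 61.5 and 135. Intercalated cell genes of the same duct were lower as well, with 11 of 13 past 1.5-fold, where 7.27% of all genes were. Their part in the Tfcp2l1 value was not tested. Pth1r, the parathyroid hormone receptor of the proximal tubule, stood at 483 in 2m AS with 842 in WT, where the other 4 libraries lay between 470 and 566. Kynurenine and NAD genes (0 of 12 past 1.5-fold, median 0.00) and one-carbon genes (2 of 19, both lower, median -0.02) lay near the median of all genes. None of the 18 transfer RNA synthetases was past 1.5-fold, but their median was -0.29, with Kars at 31.4 and 45.8 and Aars at 51.4 and 72.1.

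Nuclear genes of ribosomes and of the respiratory chain were higher in 2m AS, and respiratory chain genes of the mitochondrial genome were lower. Of 77 genes of the cytosolic ribosome 46 were at least 1.5-fold higher and none lower, where 8.57% of all genes were higher. Their median log2 ratio was 0.62. Rpl10 reached 711 in 2m AS where WT had 241, and Rps18 was at 744 and 385. The mitochondrial ribosome (78 genes) had a median of 0.42, the Nduf genes of complex I (45) of 0.36 and the Cox genes of complex IV (19) of 0.40. Of 12 mitochondrially encoded genes 8 were at least 1.5-fold lower and none higher, where 7.27% of all genes were lower. Their median was -0.76, and mt-Nd1 was at 3840 against 7530. Processed copies of ribosomal genes occur throughout the genome, so their counts depend on how such reads were assigned. Among the named genes Gstp1 and Erh are short too, with transcripts of 821 and 1293 bases, and were at 55.4 against 16.8 and 30.5 against 12.5.

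These values ran with transcript length over the whole table. The genes examined were put into 10 classes of nearly equal size. In the class of the shortest transcripts, with a median transcript of 937 bases (GENCODE M21), the median log2 ratio was 0.46, and in the longest class, with a median of 8020 bases, it was -0.16. By GC content the median went from 0.09 in the class with 40.0% to -0.23 in the class with 59.4%. When each gene was set against genes of like length and GC content, the median of the cytosolic ribosomal genes went from 0.62 to 0.31 and that of the Nduf genes from 0.36 to 0.12. The heat shock median was then -0.95 and the ER chaperone median -0.74, and the PPARα median 0.14. Of the named genes Cyp4a14 was at 3.46 and Hspa1a at -2.83 on this scale, with Khsrp at -1.26 and Per1 at -0.91. The part of transcript length in the ribosomal result was otherwise not tested.

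**Figure D3:**
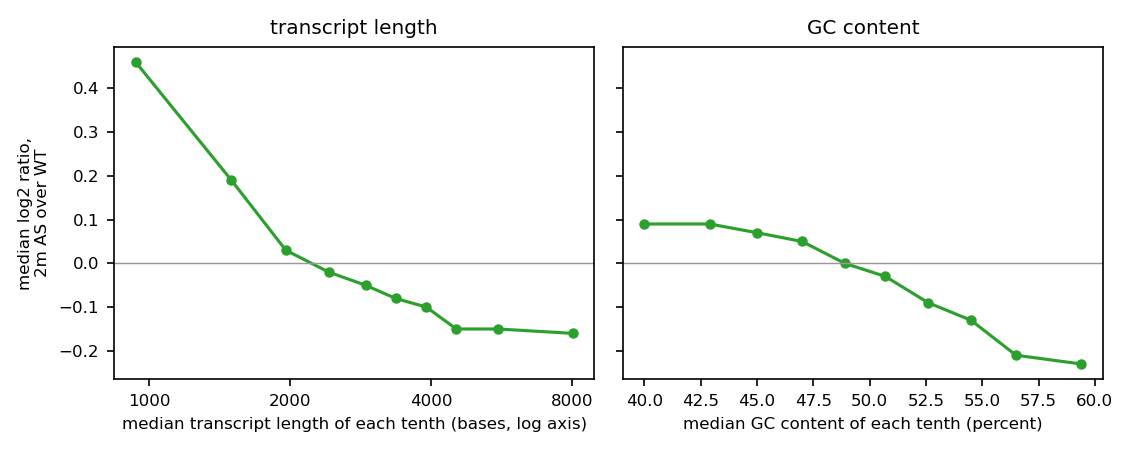
Median log2 ratio of 2m AS over WT in 10 classes of the examined genes by transcript length (left, log axis, bases) and by GC content (right, percent), with 1 point per class of 659 to 663 genes. The medians go from 0.46 to -0.16 with length and from 0.09 to -0.23 with GC content.

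The sections also differed in make-up. Summed over 13 intercalated cell genes examined, 2m AS had 517 scaled CPM and WT 1060. Of the 13 genes 11 were at least 1.5-fold lower, where 7.27% of all genes were. The 5 podocyte genes summed to 156 and 252, the 15 endothelial genes to 1130 and 1640, and the 13 late proximal genes to 3480 and 2860. The late proximal genes were uneven. Of them 5 were at least 1.5-fold higher, led by Serpina1a, and none lower, where 8.57% and 7.27% of all genes were. Slc7a13 and Slc5a1 were nearly level, with log2 ratios of 0.11 and 0.10. Their list had a median of 0.38, and of -0.05 when averaged over the regions described below. The 9 fibroblast genes were higher in sum in 2m AS, at 1900 and 1030, with 5 of them past 1.5-fold, where 8.57% of all genes were. No lymphoid or neutrophil gene of the lists reached 20 scaled CPM. Over a whole section, fewer cells of a type and less RNA per cell cannot be told apart. The 2 libraries were therefore also compared within 7 regions of like spots, which were found from marker genes alone after standardising each marker within its library. By their leading genes these were a Gatm and Slc6a19 region (800 WT and 701 2m AS spots), an Atp6v1g3 and Rhbg region (753 and 482), a Slc12a1 and Umod region (676 and 540), a Pvalb and Slc12a3 region (599 and 391), a Serpina1f and Cyp7b1 region (465 and 479), a Slc7a13 and Acsm3 region (437 and 396) and a Podxl region (361 and 211). In 2m AS the Atp6v1g3 region was also led by Acta2 and Myh11 of arterial muscle, and in WT the Slc7a13 region also by the immunoglobulin gene Igkc. Spots of the same region may still hold different mixtures of cells in the 2 libraries.

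All 24 higher and 25 lower genes kept their direction in each of the 7 regions. The regions hold the same counts as the whole libraries, so this is no second measurement. Hsph1 was nearly even across them, with ratios from 0.254 to 0.319. Cyp4a14 ranged from 6.29 in the Pvalb region to 11.8 in the Serpina1f region, where its level was also highest, at 148 in 2m AS and 12.5 in WT. Hspa1a was lowest in proportion in the Slc7a13 region, at 0.0546, and highest in the Atp6v1g3 region, at 0.246. Some genes had a smaller ratio in the Serpina1f region, where Gc had 1.14, Cyp24a1 1.44, Nat8f3 1.36 and Gsta2 1.48, while in the Gatm region they had 5.83, 4.22, 3.91 and 3.16. Scd1 was most abundant in the Serpina1f region, at 735 and 195, and its ratio was largest in the Atp6v1g3 region, at 7.72. Scd1, Mettl7a2 and Slc22a19 were richest in that region, and its leading genes were themselves higher in 2m AS, Serpina1f at 115 against 14.7 and Cyp7b1 at 94.8 against 21.3. Within the region Scd1 had a ratio of 3.77, Mettl7a2 of 3.97 and Slc22a19 of 2.30. Averaged over regions, Mettl7a2 went from a log2 ratio of 2.78 to 2.04 and Slc22a19 from 1.97 to 1.28, while Hsd17b11 was -1.83 and -1.84.

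**Figure D4:**
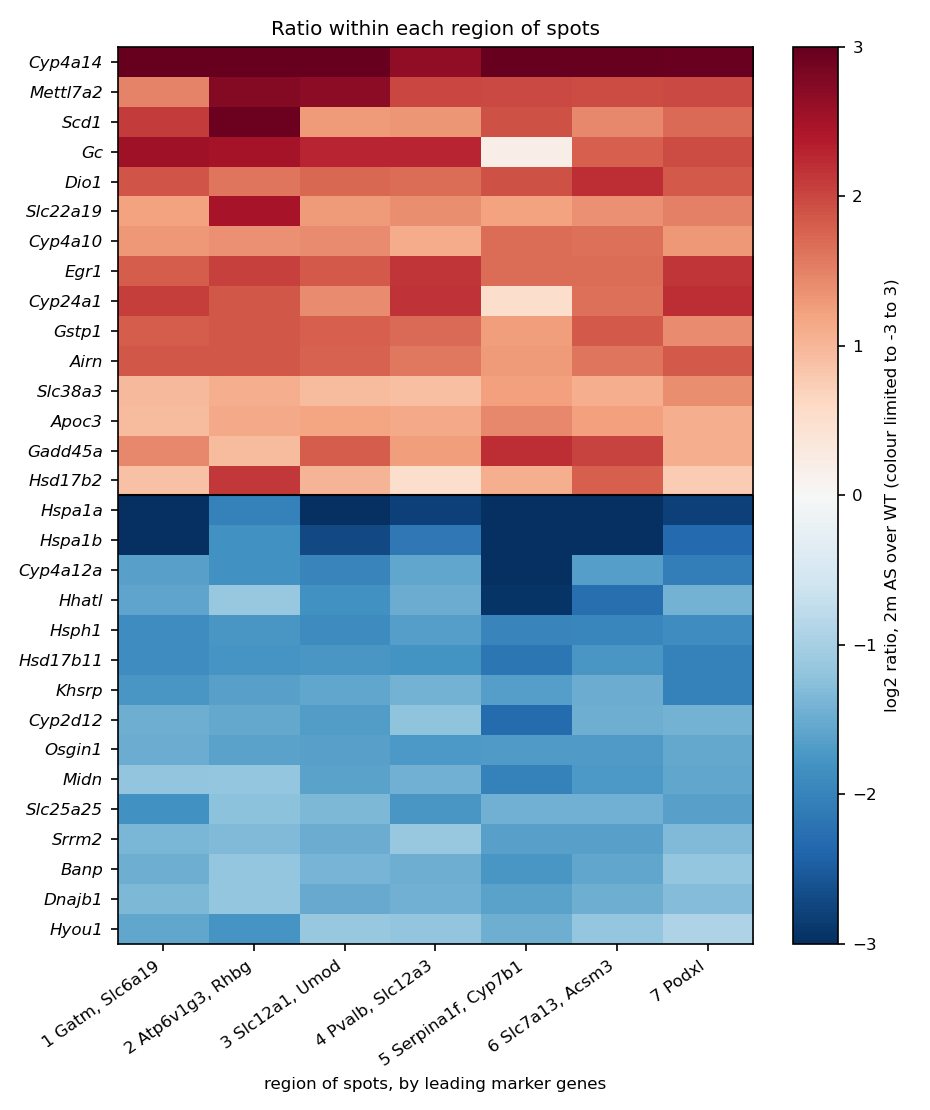
Log2 ratio of 2m AS over WT (colour, limited to -3 to 3) of 15 higher and 15 lower named genes, in order of their ratio (rows), within 7 regions of spots named by leading marker genes (columns). Each row keeps its colour across the regions, and the palest cell is that of Gc in the Serpina1f region, at a ratio of 1.14.

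Spots of a library are not replicates, but their spread shows whether a ratio came from a few of them. Each spot was thinned to 5000 UMIs, which left out 151 shallower spots of 2m AS and 71 of WT. A UMI of Cyp4a14 was then found in 17.2% of the 2m AS spots and 2.44% of the WT spots (49.5% and 7.79% before thinning). For Cyp24a1 the shares were 42.3% and 17.7%, and for Egr1 12.9% and 3.98%. For Hspa1a they were 5.29% and 37.3%, and for Hsd17b11 39.9% and 84.7%. For Hsd17b11 0.0653% of the 2m AS spots exceeded the 90th percentile of the WT spots, and for Hsph1 0.163%, where 5.52% and 5.59% of the WT spots themselves did. Other lower genes overlapped more, up to Rpia with 3.79% of the 2m AS and 7.73% of the WT spots. Cyp24a1 exceeded that percentile in 17.6% of the 2m AS spots and 2.11% of the WT spots. Without the 1% of spots richest in each gene, the log2 ratio was 3.76 for Cyp4a14, 2.36 for Scd1 and -3.27 for Hspa1a. Free RNA that spreads on the slide can give UMIs in spots whose cells do not express a gene, and its part in these shares was not tested.

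**Figure D5:**
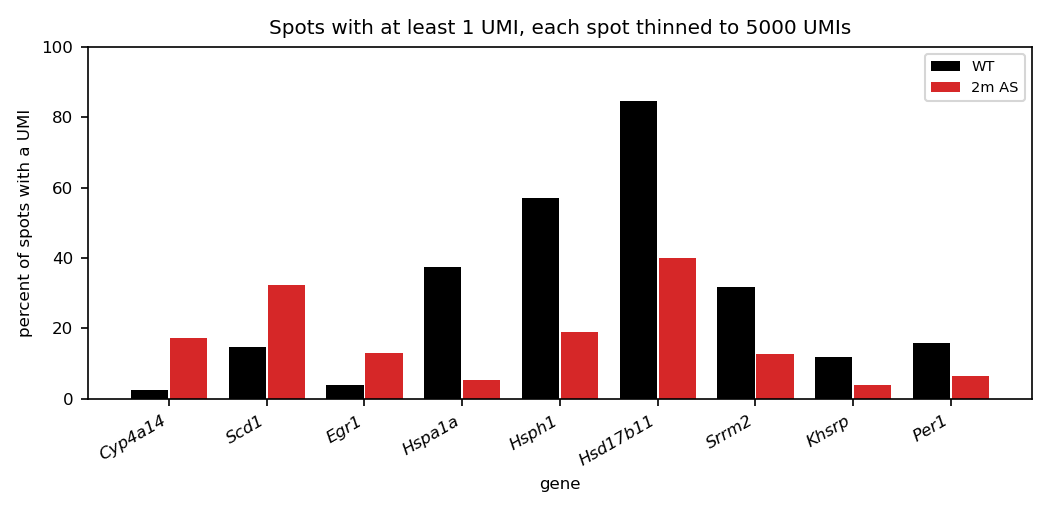
Percent of spots with at least 1 UMI of each gene (bars from 0 to 100 percent) in WT (black) and 2m AS (red), with every spot thinned to 5000 UMIs (4022 WT and 3061 2m AS spots). Among the 9 genes shown the bars differ most for Hsd17b11, at 84.7% and 39.9%, and for Hsph1, at 57.0% and 18.9%.

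Among the 24 higher and 25 lower genes, few set both libraries apart from the rest of the series at once. 2m AS was the highest and WT the lowest of the 6 libraries for Gadd45a and Erh, and the reverse held for Osgin1, an oxidative stress-induced growth inhibitor, and Rpia, an enzyme of the pentose phosphate pathway. Both libraries of Space Ranger 1.2.1 were below all 4 of version 1.3.1 for Erh, Cyp24a1 and Nat8f3, or 3 of the 24 higher genes. They were above them for 7 of the 25 lower genes, among them Osgin1 and Banp. Of all genes 2.33% were split in the first way and 8.31% in the second. The part of the version in these differences was not tested. WT was at the far end for 6 of the 24 higher genes, among them Cyp4a14, Gc, Egr1 and Gsta2. It was the highest for 10 of the 25 lower genes, among them Cyp4a12a, Hsd17b11, Cyp2d12, Cyp2j13 and Fam151a. These genes were chosen for their ratio of 2m AS to WT, so the ranks of both libraries follow in part from the choice. No second WT library of the same kind was analysed here.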

How the data were processed

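Per the file headers, the authors counted UMIs per gene and spot with Space Ranger 1.2.1 (WT and 5m AS) or 1.3.1 (the other libraries), and the matrices were deposited as raw counts. The submitters' processing notes name the mm10 build. Annotation, strand handling and spot filters are not given in the sources used here. UMIs of all spots were summed per library and scaled by TMM (edgeR 4.0.16, R 4.3.3; factors 0.801 for 2m AS, 0.858 for WT). A floor of 3 counts was 0.0407 and 0.0439 scaled CPM. Log2 ratios add 0.5 counts. There were 38 symbols listed more than once, and they were left out of lists.

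Named genes had at least 20 scaled CPM in 1 library and a 1.5-fold difference in the same direction under 5 settings (TMM, plain CPM, DESeq2 1.42.0 median-of-ratios factors, without mitochondrially encoded genes, spots weighted equally), and were outside the marker, injury and matrix lists. The 25 largest ratios per direction were taken, with up to 4 members of each described list. The members and lists were chosen with earlier results of these data known. Other genes of the lists are given as examples. A few genes that the rule names, among them 1 of the 25 higher, are not reported here.

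Regions came from Leiden clustering (leidenalg 0.10.2) of spots on marker genes. The clustering as first planned split by library, so regions standardised within library, chosen after seeing the data, are shown, as is the length and GC comparison (GENCODE M21, 6604 of 6607 genes matched by identifier). Of the barcodes, 2641 occur in both libraries, since slides share positions. Promoters are from RefSeq. Interval coverage was tested on simulated data. Alternatives were other scalings, floors, spot weights and depths, regions, and the mixed library as control.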

Additional observations from a re-analysis of the deposited data

How the results depend on the processing

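Counts of at least 2-fold higher and lower genes (85 and 74) stayed within 1.5 times under median-of-ratios factors, TMM on the 2 libraries alone, without mitochondrially encoded genes, with spots weighted equally, deep spots only, thinned spots, regions standardised within library, and relative to like length and GC content. Plain CPM gave 54 higher genes. A floor of 5 scaled CPM gave 158 and 149, and a floor of 50 gave 50 and 47. The planned regions, of which 5 of 9 held enough spots of both libraries, gave 47 lower genes. Against the mixed female library 202 genes were higher. Plain CPM moved the median log2 ratio of all genes from -0.03 to -0.12 and turned the split to 54 higher and 96 lower; median-of-ratios factors gave 116 and 66. The number of lists with a median past 1.5-fold was 2, and 2 or 3 under each alternative, but not always of the same lists. Against the mixed library, over the same genes, the heat shock median went from -0.90 to -0.27. The ER chaperone median went from -0.66 to -0.45, so neither was past 1.5-fold there.

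Of 107 named genes past 1.5-fold, between 97 and 107 stayed past it in the same direction under the scalings, spot weights, depths and without the richest 1% of spots, 99 in the standardised regions, 86 in the planned regions, 81 of 106 relative to like length and GC content, and 34 against the mixed library, which differs in sex. With planned regions the log2 ratio changed sign for Ptges (0.17) and Ltc4s (0.27). Against the mixed library it changed sign for Cyp4a14 (-2.62), Scd1 (-1.41), Gc (-1.96), Dio1 (-1.42), Slc22a19 (-1.05), Gsta2 (-2.00), Id4 (-0.61), Cyp4a12a (4.64), Hsd17b11 (1.79), Lrp12 (0.72), Cyp2j13 (8.55), Fam151a (0.03), Eif4ebp1 (-0.11), Psph (-0.11), Ftl1 (-0.30), Cyp51 (-0.13), Stard4 (-0.35), Mlxipl (0.07), Sod1 (0.40), Gpx6 (-0.23), Zfp36 (-0.11), Rxra (0.10), Adh1 (1.68), Odc1 (1.18) and Aldh1l1 (0.06). The cause was not tested. No paired analysis was possible because each side has 1 library. Counting error was small at this depth, and the spread between animals is unknown.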
